A study of Mus musculus with 2 samples.

Results

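The alpha subunits of the GABA-A receptor were followed as 5 genes, Gabra2, Gabra3, Gabra4, Gabra5 and Gabra6, chosen by symbol from the 32285 genes of the deposited tables. All 5 were detected in both sections and all 5 passed the filter on low counts; other alpha subunit genes are not analysed here. RNA was captured with 10x Visium from 2 fresh-frozen sections, 10 µm thick, of wildtype C57BL/6 mouse brain labelled ZT12, one each as replicate 1 (section 1) and replicate 2 (section 2). No other genotype, treatment or time is among these samples, and whether 1 animal or 2 gave the sections is not stated in the labels. The p-values reflect how differences between spot groups varied over these 2 sections alone, after a shift shared by a whole section was fitted out. The spread was pooled over all tested groups and drawn toward that of other genes, so it is not one group's own variation between sections. Nor can the p-values be taken as a measure of the spread between animals. The values are UMI counts per gene in spots, and a single spot can cover cells of several types.

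The GABA-A receptor is a chloride channel of 5 subunits that opens when it binds GABA, the main inhibitory transmitter of the adult brain. A typical receptor pairs alpha with beta subunits and adds a gamma or delta subunit, and the alpha type helps set where on the neuron the receptor sits and how it responds to GABA and to drugs. Receptors with alpha 2 or alpha 3 are mostly synaptic and sensitive to benzodiazepines. Those with alpha 4 often carry delta in place of a gamma subunit, lie outside the synapse, give a steady tonic current and are insensitive to classical benzodiazepines. Alpha 5 is known for extrasynaptic receptors of hippocampal pyramidal cells, and alpha 6 is a marker of cerebellar granule cells.

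The 5 genes lie in 4 clusters of receptor genes on the GRCm38.p6 assembly. Gabra2 (ENSMUSG00000000560, chr5:70958392-71095849) and Gabra4 (ENSMUSG00000029211, chr5:71569734-71658308) share one cluster with Gabrg1 and Gabrb1, and the annotated spans of Gabra4 and Gabrb1 overlap by 388 bases. Gabra5 (ENSMUSG00000055078, chr7:57407669-57591016) lies beside Gabrg3. Gabra6 (ENSMUSG00000020428, chr11:42306437-42321072) lies 98442 bases from Gabrb2, and Gabra3 (ENSMUSG00000031343, chrX:72432676-72656919) lies between Gabre and Gabrq. All 5 are listed on the minus strand in RefSeq's table of transcription starts.

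The 250 bases before an annotated start are printed for the 4 genes that led a spot group below, 5′ to 3′ on the minus strand, with each CG pair in capitals. CG is its own reverse complement, so a pair counts once for both strands.
Gabra4, chr5:71658309-71658558: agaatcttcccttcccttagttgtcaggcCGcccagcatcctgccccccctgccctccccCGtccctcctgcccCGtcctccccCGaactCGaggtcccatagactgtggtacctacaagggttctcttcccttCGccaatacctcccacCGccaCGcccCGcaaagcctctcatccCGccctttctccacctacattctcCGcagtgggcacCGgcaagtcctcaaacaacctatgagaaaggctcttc
Gabra5, chr7:57510060-57510309: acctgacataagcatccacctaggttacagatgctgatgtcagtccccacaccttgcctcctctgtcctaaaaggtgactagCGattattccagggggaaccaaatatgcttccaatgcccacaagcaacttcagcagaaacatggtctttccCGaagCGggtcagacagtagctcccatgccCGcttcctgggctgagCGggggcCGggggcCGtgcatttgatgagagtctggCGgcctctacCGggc
Gabra6, chr11:42321073-42321322: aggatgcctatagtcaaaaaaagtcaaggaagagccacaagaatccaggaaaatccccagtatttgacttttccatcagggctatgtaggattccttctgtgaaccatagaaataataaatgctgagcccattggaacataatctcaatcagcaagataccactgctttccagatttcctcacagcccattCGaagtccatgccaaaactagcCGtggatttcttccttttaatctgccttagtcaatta
Gabra3, chrX:72656920-72657169: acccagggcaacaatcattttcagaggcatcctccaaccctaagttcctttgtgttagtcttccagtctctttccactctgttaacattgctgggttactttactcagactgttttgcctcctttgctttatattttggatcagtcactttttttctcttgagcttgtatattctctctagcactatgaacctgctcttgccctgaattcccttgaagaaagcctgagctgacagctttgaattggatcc
The windows differ in base composition. That of Gabra4 holds 12 CG pairs at 61.2% G and C, that of Gabra5 holds 9 at 56.4% and lies inside the gene's annotated span, that of Gabra6 holds 2 at 40.8%, and that of Gabra3 holds 0 at 42.4%, as does its second listed window at 39.2%. Gabra2, not printed, holds 18 at 70.0%. The median of all 32851 windows in the table is 6 pairs at 52.4%, and 7.87% of windows hold none.

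Section 1 kept 3030 of 3167 spots with at least 500 UMIs and section 2 kept 2531 of 2533, with medians of 18127 and 21555 UMIs per spot. Spots were grouped by 16 lists of anatomical marker genes that hold no GABA-A receptor subunit. A group is a range set by a score and not a cell type; 1017 and 751 spots joined none. The groups are called here by their lists, and the 14 with 30 spots or more in each of the sections were tested. Outside its list the thalamus group was led by Ramp3 and Ptpn3, and the striatum group by Penk and Tac1. The CA1 and CA3 groups were likewise led by Neurod6, and the meninges group by Myoc and the hemoglobin gene Hba-a1, which marks blood. The counts limit some labels. The olfactory bulb group held only 79 and 104 UMIs of its 6 markers, so it is used only as a set of spots chosen by that list. The claustrum and endopiriform group held 312 and 577 UMIs of its 6 markers, all higher inside the group in both sections. Most of these UMIs were of Slc30a3 (119 and 253) and Synpr (104 and 212), with 9 and 10 of Ntng2. The striatum group of section 1 was small and shallow, with 34 spots and a median of 8499 UMIs. The midbrain and hindbrain group held 154 spots in section 1 and 30 in section 2. All 8 of its markers were higher inside the group in both sections, but their levels differed between sections. Slc6a5 stood at 68.2 and 4.99 CPM, Spp1 at 184.9 and 29.9 CPM and, the other way, Gata3 at 14.9 and 34.9 CPM.

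The 5 genes gave 12603 UMIs in section 1 and 11659 in section 2. In CPM (a gene's UMIs divided by all UMIs of the sum, times 1000000), Gabra4 stood at 62.2 and 60.8 CPM in sections 1 and 2, Gabra3 at 55.8 and 63.3 CPM, Gabra5 at 48.4 and 46.8 CPM, and Gabra2 at 26.7 and 37.9 CPM. Gabra6 stood at 21.9 CPM in section 1, from 1283 UMIs, and at 1 UMI in all of section 2. Each UMI counts 1 captured molecule, so these levels were not divided by gene length, and how well each gene's RNA is captured was not tested.

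**Figure D1:**
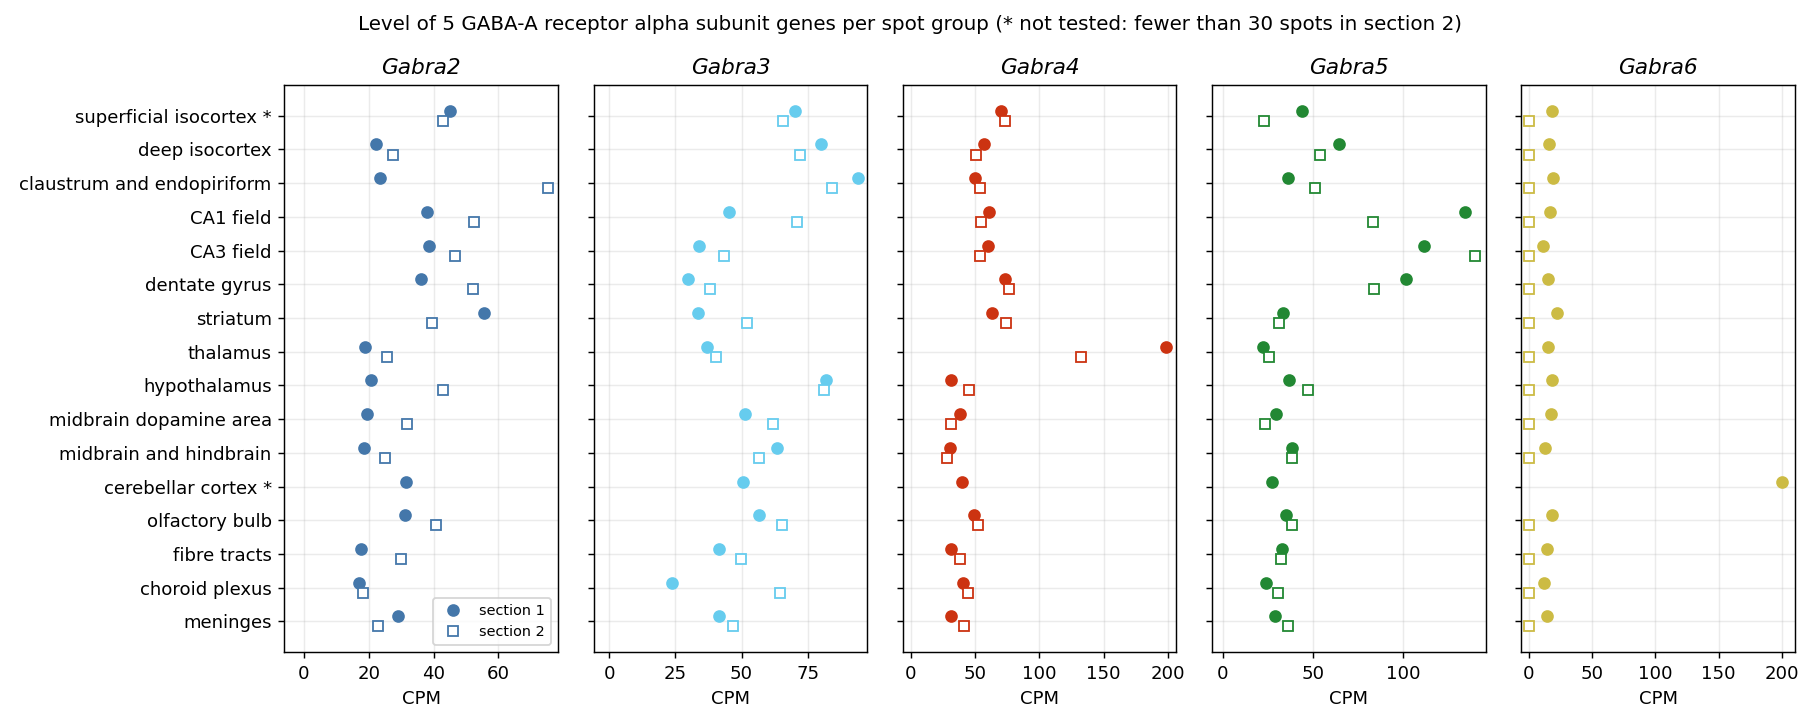
CPM (horizontal axes, one scale per gene) of the 5 genes in each spot group (vertical axis), with filled circles for section 1 and open squares for section 2. Gabra4 is far to the right in the thalamus group at 198.1 and 132.3 CPM, Gabra5 in the CA1, CA3 and dentate gyrus groups, and Gabra6 in the cerebellar cortex group of section 1; the single cerebellar spot of section 2 is not drawn.

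Each group was compared with the average of the remaining 13 by edgeR's quasi-likelihood test on 28 sums, one per group and section, with section as a term and p-values adjusted by Benjamini-Hochberg over all 13145 genes tested. Of 70 such tests of the 5 genes, 13 were higher and 14 were lower at an adjusted p under 0.05. Over all genes, the share called in either direction ran from 0% in the olfactory bulb group to 28.7% in the fibre tract group. Gabra2 was higher in 3 groups and lower in 2, Gabra3 higher in 3 and lower in 3, Gabra4 higher in 3 and lower in 4, Gabra5 higher in 4 and lower in 5, and Gabra6 in none (0 of 14 at an unadjusted p under 0.05 with edgeR, and 0 called by DESeq2). A test for any difference among the 14 groups called 4 of the 5 genes, all but Gabra6 (adjusted p = 0.96), where 58.3% of all genes were called. Since spots mix cells, fewer cells of a type and less RNA per cell cannot be told apart in any of these levels.

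**Figure D2:**
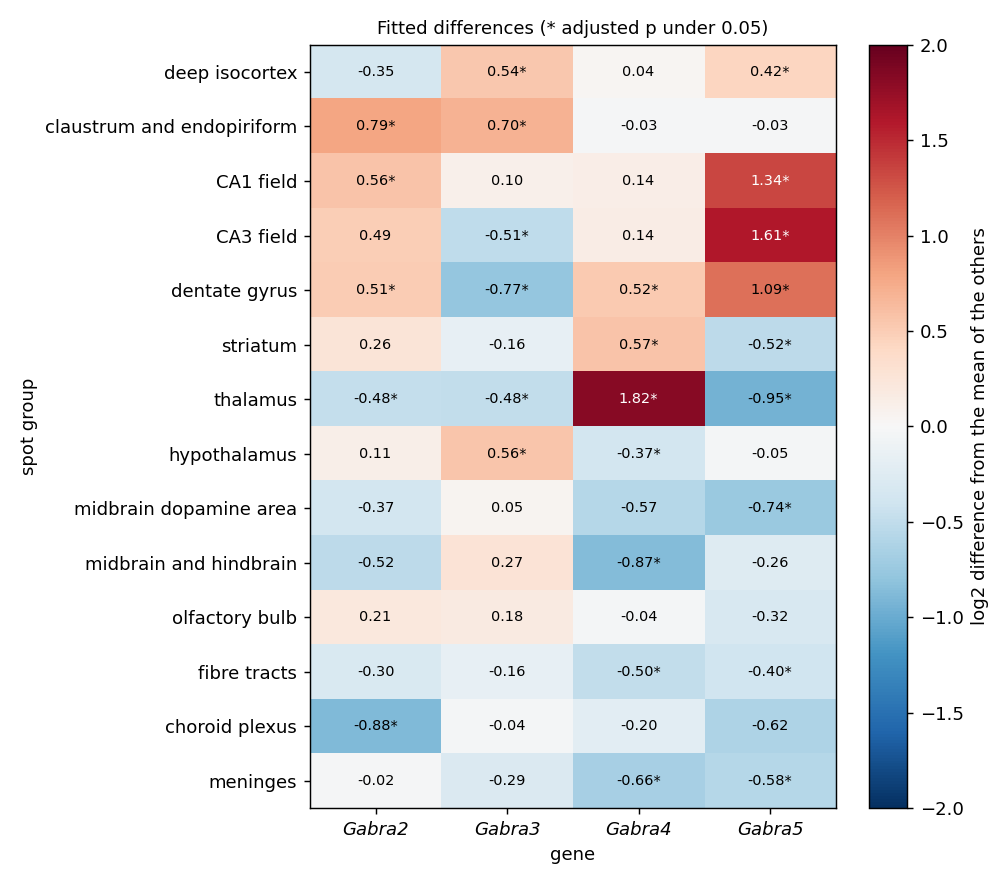
Fitted log2 difference of each spot group (vertical axis) from the mean of the other 13, for 4 genes (horizontal axis); red is higher, blue is lower, and an asterisk marks an adjusted p under 0.05. The largest differences are Gabra4 in the thalamus group (1.82) and Gabra5 in the CA3 (1.61) and CA1 (1.34) groups.

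Gabra4 encodes alpha 4, the partner of delta in extrasynaptic receptors of the forebrain. It stood at 198.1 CPM in the thalamus spots of section 1 and 132.3 CPM in those of section 2. The next group, the dentate gyrus, stood at 73.7 and 76.7 CPM, so both thalamus values lie above every value of the other groups. The thalamus group was higher than the mean of the others by 1.82 ± 0.08 on the log2 scale (SE, edgeR, adjusted p = 5.92e-22), where 4 of the 5 genes and 21.6% of all genes were called. Leaving out the section 1 sum of the thalamus gave 1.47 and leaving out its section 2 sum gave 2.13, and it passed the test under all 12 alternatives run.

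Within the thalamus group the transcript was widespread. At least 1 Gabra4 UMI was found in 91.7% of 312 spots in section 1 (95% exact interval 88.0 to 94.5%) and 88.2% of 254 spots in section 2 (83.6 to 91.9%), with up to 13 and 11 UMIs in a spot. Fibre tract spots, chosen by myelin genes, gave 29.7% and 41.4%. Their medians were 10679 and 13966 UMIs, against 18218 and 20367 in the thalamus group. Thinned to 5000 UMIs per spot, the shares were 57.1% and 46.5% in the thalamus group and 14.9% and 17.3% in the fibre tract group. These intervals cover counting error only.

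The other 3 genes called in the thalamus spots were lower there. Gabra5 stood at 22.2 and 25.7 CPM, the lowest of its 14 groups by the mean of both sections (log2 difference -0.95 ± 0.13, adjusted p = 1.55e-07, edgeR), and this call also passed all 12 alternatives. Gabra3 stood at 37.0 and 40.4 CPM (-0.48 ± 0.11, adjusted p = 0.000631), and its call was lost when section was left out of the model (adjusted p = 0.089). Gabra2 stood at 19.0 and 25.5 CPM (-0.48 ± 0.14, adjusted p = 0.00773), a call lost without the thalamus sum of either section (-0.51 and -0.43, adjusted p = 0.078 and 0.17). The 8 GABAergic neuron markers summed to 698.7 and 1062 CPM in the thalamus spots, the lowest of the 14 groups in both sections, with all 8 detected; their part in these results was not tested.

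Gabra4 was also higher in the dentate gyrus (0.52 ± 0.12, adjusted p = 0.000703), where 4 of the 5 genes and 21.3% of all genes were called. Without the dentate gyrus sum of section 2 the difference was 0.46 at an adjusted p of 0.050. In the striatum group it stood at 63.0 and 74.2 CPM (0.57 ± 0.13, adjusted p = 0.00204), where 2 of the 5 genes and 8.51% of all genes were called. This call was lost without the striatum sum of section 2, at 0.15 and an adjusted p of 0.96, which leaves the 34 shallow spots of section 1. Set directly against the striatum group, the thalamus group was higher by 1.16 ± 0.15 (adjusted p = 5.14e-08), a pair in which 2 of the 5 genes and 15.8% of all genes were called; Gabra2 was lower there (-0.69 ± 0.20, adjusted p = 0.0122), a call lost without the sums of either section (adjusted p = 0.070 and 0.16). Against the deep isocortex the striatum was higher in Gabra4 by 0.50 ± 0.16 (adjusted p = 0.0418), a call kept in only 2 of 11 alternatives: it was lost without the sums of section 1 or section 2 (adjusted p = 0.080 and 0.99), with DESeq2 (0.45, adjusted p = 0.29), without section in the model (adjusted p = 0.30), without TMM factors (adjusted p = 0.072) and under 4 other spot groupings (adjusted p from 0.050 to 0.21).

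The gene was lowest in the midbrain and hindbrain spots, at 30.5 and 28.3 CPM (-0.87 ± 0.18, adjusted p = 0.000666), where it alone of the 5 genes and 8.86% of all genes were called. Without the section 1 sum the difference was -0.93 at an adjusted p of 0.42, which leaves 30 spots. Meninges spots stood at 31.2 and 41.4 CPM (-0.66 ± 0.15, adjusted p = 0.000776), with 2 of the 5 genes and 21.5% of all genes called, and fibre tract spots at 31.7 and 38.7 CPM (-0.50 ± 0.12, adjusted p = 0.00163), with 2 of the 5 genes and 28.7% of all genes called. Both calls were lost without the section 1 sum (-0.34 and -0.33, adjusted p = 0.60 and 0.21). Against the deep isocortex the fibre tracts were lower by -0.50 ± 0.16 (adjusted p = 0.0116), also lost without the section 1 sums (-0.33, adjusted p = 0.39). The hypothalamus value (-0.37 ± 0.12, adjusted p = 0.0416) was lost without its section 1 sum (-0.19, adjusted p = 0.49).

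Gabrd, which encodes the delta subunit and lies on chromosome 4 apart from the alpha genes, was among the 5 genes most like Gabra4 across the 28 sums. The measure was Pearson's r of log2 CPM over 10290 genes outside the marker lists. Ptpn3 led at 0.89, and Nsmf, Tiam1, Gabrd and Lrrtm1 each had 0.87. The sums share 2 libraries and neighbouring tissue, so r is a description without a p. Gabrd stood at 220.7 and 208.6 CPM in the thalamus spots, 170.5 and 148.0 CPM in the striatum spots and 99.7 and 100.5 CPM in the dentate gyrus spots, the same 3 groups in which Gabra4 was higher. Its differences were 1.89 ± 0.07 (adjusted p = 1.67e-24), 1.30 ± 0.11 (adjusted p = 4.23e-13) and 0.64 ± 0.10 (adjusted p = 3.43e-06). The likeness was not that of the chromosomal neighbours: Gabrb1, which overlaps Gabra4 at its start, had an r of 0.35 with it, and Gabra2 had 0.22. No source used here says whether the counting used strand, and reads from the 388 bases that Gabrb1 and Gabra4 share cannot be assigned to 1 of these genes without it.

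**Figure D3:**
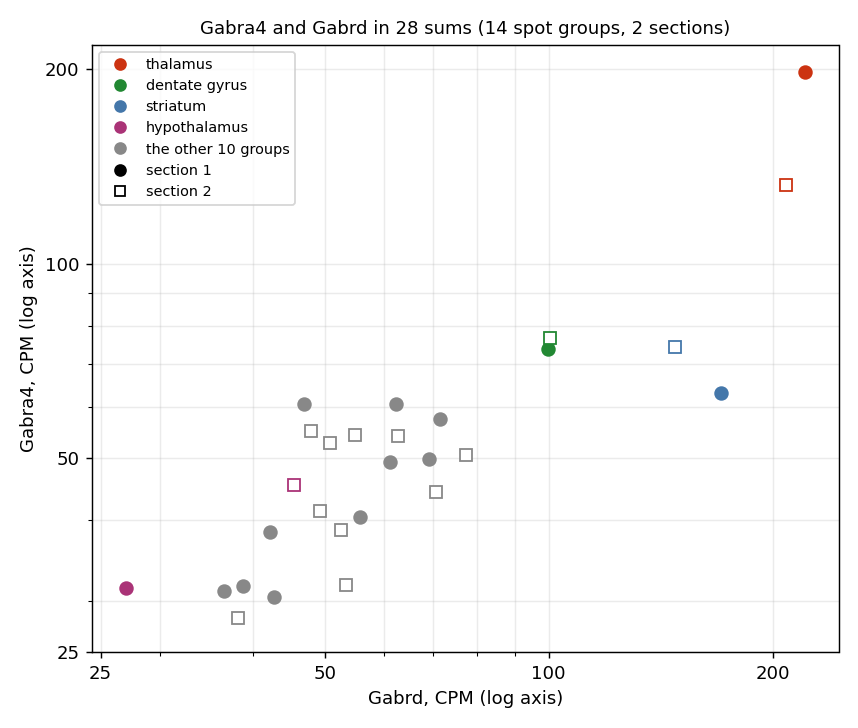
Gabra4 (vertical) against Gabrd (horizontal) in CPM on log axes, one point per spot group and section, filled for section 1 and open for section 2. The 2 thalamus sums lie at the upper right (220.7 and 208.6 CPM of Gabrd), the striatum sums have more Gabrd per Gabra4, and the hypothalamus sum of section 1 is lowest in Gabrd at 27.1 CPM.

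Gabra5 encodes alpha 5, the subunit of hippocampal extrasynaptic receptors. It stood at 111.2 and 139.7 CPM in the CA3 spots, at 134.1 and 83.1 CPM in the CA1 spots and at 101.3 and 83.9 CPM in the dentate gyrus spots. Every one of these 6 values exceeded those of the next group, deep isocortex, at 64.5 and 54.0 CPM, while the CA1 values overlapped those of both CA3 and the dentate gyrus. Against the mean of the others the difference was 1.61 ± 0.13 in CA3 (adjusted p = 1.82e-13), where 2 of the 5 genes and 10.6% of all genes were called. It was 1.34 ± 0.11 in CA1 (adjusted p = 8.92e-13), where 2 of the 5 genes and 13.7% were called, and 1.09 ± 0.11 in the dentate gyrus (adjusted p = 2.08e-10). All 3 calls passed every one of the 12 alternatives.

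The sections ordered the hippocampal fields differently. CA1 was the higher of the pair in section 1 and CA3 in section 2, and CA1 minus CA3 was -0.25 ± 0.15 (adjusted p = 0.58). In that pair edgeR called none of the 5 genes (1 at an unadjusted p under 0.05, Gabra3; DESeq2 none) and 2.45% of all genes. The share of spots with a Gabra5 UMI also changed sides in CA3, from 49.1% of 57 spots in section 1 to 87.9% of 58 in section 2, while up to 14 and 13 UMIs fell in a single spot. The median depth of CA3 spots was 20155 UMIs in section 1 against 26775 in section 2, and after thinning the shares were 26.8% and 52.6%.

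In the isocortex Gabra5 was higher in the deep group (0.42 ± 0.11, adjusted p = 0.00536), where 2 of the 5 genes and 20.5% of all genes were called; without the section 1 sum the difference was 0.28 at an adjusted p of 0.49. Besides the thalamus it was lower in the midbrain dopamine area, at 29.6 and 23.4 CPM (-0.74 ± 0.20, adjusted p = 0.0284), the only one of the 5 genes called there, with 3.56% of all genes called. It was also lower in the meninges (-0.58 ± 0.16, adjusted p = 0.0059), the striatum (-0.52 ± 0.17, adjusted p = 0.041) and the fibre tracts (-0.40 ± 0.13, adjusted p = 0.0165). Each of these 4 calls was lost when a sum of the group was left out: without section 1 all 4 (adjusted p = 0.55, 0.67, 0.092 and 0.17), and without section 2 all but the meninges (adjusted p = 0.16, 0.74 and 0.13). Set directly against the deep isocortex, the striatum was lower by -0.88 ± 0.19 (adjusted p = 0.00106) and the fibre tracts by -0.77 ± 0.16 (adjusted p = 0.00017). In the striatum pair 3 of the 5 genes and 10.6% of all genes were called, and in the fibre tract pair 3 of the 5 and 35.3%. The fibre tract difference passed all alternatives, and the striatum one was lost without the sums of either section (adjusted p = 0.058 and 0.40).

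Genes most like Gabra5 were Arhgef25, Arpc3, Nckap1, Camta2 and Enc1, at r from 0.88 to 0.90 over the 28 sums.

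Gabra3 encodes alpha 3, a synaptic subunit of cortex and of monoaminergic and hypothalamic nuclei. It was highest in the claustrum and endopiriform spots at 94.0 and 84.2 CPM. The hypothalamus followed at 81.8 and 81.1 CPM and the deep isocortex at 80.2 and 72.1 CPM. The 95% Poisson intervals of these 3 groups overlapped. They were 68.9 to 101.8 CPM in the claustrum of section 2, and in section 1 68.3 to 97.1 in the hypothalamus and 72.6 to 88.3 in the deep isocortex. The order among these 3 groups was not tested. All 3 lay above the mean of the others. The hypothalamus difference (0.56 ± 0.10, adjusted p = 0.000102), where 2 of the 5 genes and 10.6% of all genes were called, passed all 12 alternatives. The deep isocortex difference (0.54 ± 0.10, adjusted p = 5.99e-05) was lost without its section 1 sum (0.32, adjusted p = 0.27). The claustrum difference (0.70 ± 0.15, adjusted p = 0.00525), where 2 of the 5 genes and 1.34% of all genes were called, was lost without the sum of either section (0.56 and 0.90, adjusted p = 0.33 and 0.12).

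By the mean of both sections Gabra3 was lowest in the dentate gyrus, at 29.8 and 38.1 CPM (-0.77 ± 0.14, adjusted p = 2.73e-05), a call that passed all alternatives. The choroid plexus sum of section 1, at 23.7 CPM, was lower than either, against 64.7 CPM in section 2. CA3 stood at 34.1 and 43.3 CPM (-0.51 ± 0.16, adjusted p = 0.0336), a call lost without either section's sum (adjusted p = 0.34 and 0.21). CA1 did not follow them, at 45.1 and 71.1 CPM, and dentate gyrus minus CA1 was -0.81 ± 0.18 (adjusted p = 0.00177), the only one of the 5 genes called in a pair where 5.61% of all genes were; without the section 2 sums it was -0.64 (adjusted p = 0.23). Gabra3 was also below the deep isocortex in the striatum (-0.65 ± 0.16, adjusted p = 0.00477) and in the fibre tracts (-0.65 ± 0.14, adjusted p = 0.000232). The striatum difference was lost without the sums of either section (-0.41 and -1.37, adjusted p = 0.30 and 0.13) and the fibre tract one without those of section 1 (-0.48, adjusted p = 0.10).

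Hypothalamus and thalamus, neighbours in the diencephalon, differed in 4 of the 5 genes, where 19.6% of all genes were called. Gabra4 was lower in the hypothalamus by -2.03 ± 0.14 (31.5 and 45.4 CPM against 198.1 and 132.3, adjusted p = 9.64e-16). Gabra3 was higher by 0.97 ± 0.14 (adjusted p = 5.41e-07), Gabra5 by 0.84 ± 0.17 (adjusted p = 0.000194) and Gabra2 by 0.55 ± 0.18 (adjusted p = 0.0233). The first 2 passed all alternatives; Gabra5 was lost without the section 2 sums (0.65, adjusted p = 0.19), and so was Gabra2 (0.06, adjusted p = 0.96).

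Other receptor subunits also differed in this pair. Of the 13 listed non-alpha subunit genes, 9 were tested, and 5 were higher and 1 lower in the hypothalamus than in the thalamus (median log2 difference 0.37, against 0.01 over all genes). Gabrq and Gabre, which encode theta and epsilon and flank Gabra3 on the X chromosome, were higher by 3.22 ± 0.36 (adjusted p = 1.90e-09) and 2.76 ± 0.50 (adjusted p = 3.74e-05). Gabrq stood at 29.6 and 17.2 CPM in the hypothalamus spots against 1.06 and 3.24 CPM in the thalamus spots, and Gabre at 5.66 and 6.81 against 0.53 and 1.14 CPM, in part from few UMIs (3 and 6 in the thalamus). Gabrg1 was higher by 0.83 ± 0.18 (adjusted p = 0.000515), and Gabrd was lower by -2.49 ± 0.13 (adjusted p = 9.15e-20). The genes most like Gabra3 were Olfm2 and Chd5 at r of 0.87 and 0.84, with Zwint, Fto and 6330403K07Rik between 0.79 and 0.80; the best placed subunit gene was Gabrg1, at 0.52.

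Gabra2 encodes alpha 2, a synaptic subunit of forebrain neurons. In the order by mean, 12 of its 13 neighbouring pairs of groups overlapped, against 9 of 13 for Gabra3, Gabra4 and Gabra5. It was higher in CA1 at 37.8 and 52.4 CPM (0.56 ± 0.14, adjusted p = 0.00478), in the dentate gyrus at 36.2 and 52.0 CPM (0.51 ± 0.14, adjusted p = 0.00816) and in the claustrum at 23.5 and 75.4 CPM (0.79 ± 0.19, adjusted p = 0.0193). The CA1 and dentate gyrus calls were lost without the sum of either section (adjusted p between 0.088 and 0.13). The claustrum call rested on section 2: without it the difference was -0.17 (adjusted p = 0.98). It was lower in the choroid plexus, at 16.9 and 18.2 CPM (-0.88 ± 0.27, adjusted p = 0.0213), the only one of the 5 genes called there with 14.1% of all genes called; without the section 2 sum it was -0.57 (adjusted p = 0.57).

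Gabra2 stood higher in section 2 than in section 1 in 12 of the 14 groups, with a median ratio of 1.35. The same count was 10 for Gabra3, 8 for Gabra4 and 8 for Gabra5. The sections are 1 sample each, so no test was made between them, and the headers of the 2 matrices name different Space Ranger versions, 1.2.2 and 2.0.1; anatomy, library and version cannot be told apart. The genes most like Gabra2 were Kcnip2, Prrt1, Icam5, Shisa7 and Zmym3, at r from 0.80 to 0.83. Shisa7 encodes a protein that binds GABA-A receptors, and it was higher in CA1 (0.96 ± 0.11, adjusted p = 2.96e-09) and in the dentate gyrus (0.82 ± 0.11, adjusted p = 8.98e-08).

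The isocortex also differed by depth in Gabra2. Superficial isocortex spots, 107 in section 1 and 18 in section 2, were too few for the 14 groups and were tested with the minimum lowered to 15, a choice made after seeing the data. They stood at 45.0 and 43.0 CPM against 22.2 and 27.5 CPM in the deep group, and the difference was 0.995 ± 0.22 (adjusted p = 0.00434), the only one of the 5 genes called in a comparison where 2.28% of all genes were. For Gabra5 it was -0.57 ± 0.20 (adjusted p = 0.14).

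In the olfactory bulb group none of the 5 genes was called by edgeR, none at an unadjusted p under 0.05 and none by DESeq2, and 0% of all genes were called (713 of 13145 at an unadjusted p under 0.05).

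The make-up of the 5 genes' UMIs put these levels side by side. Gabra4 gave 68.0% and 59.1% of them in the thalamus spots (95% exact intervals 65.7 to 70.2% and 56.2 to 61.9%), and 30.4% and 37.8% in the striatum. Gabra5 led in CA1 (45.6% and 31.8%), CA3 (43.5% and 49.2%) and the dentate gyrus (39.6% and 33.5%). Gabra3 led in 8 groups in both sections. Its shares were 43.3% and 37.5% in the hypothalamus, 33.4% and 35.3% in the deep isocortex and 38.9% and 38.2% in the midbrain and hindbrain. The last value came from 30 spots and 89 UMIs of the 5 genes (95% exact interval 28.1 to 49.1%). Gabra2 led in none and reached 28.5% at most. The leading gene was the same in both sections in 13 of the 14 groups; in the choroid plexus it was Gabra4 in section 1, from 69 UMIs in all, and Gabra3 in section 2. With Gabra6 left out, the section 1 shares of Gabra4 in the thalamus and of Gabra5 in CA1 were 71.7% and 48.3%.

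**Figure D4:**
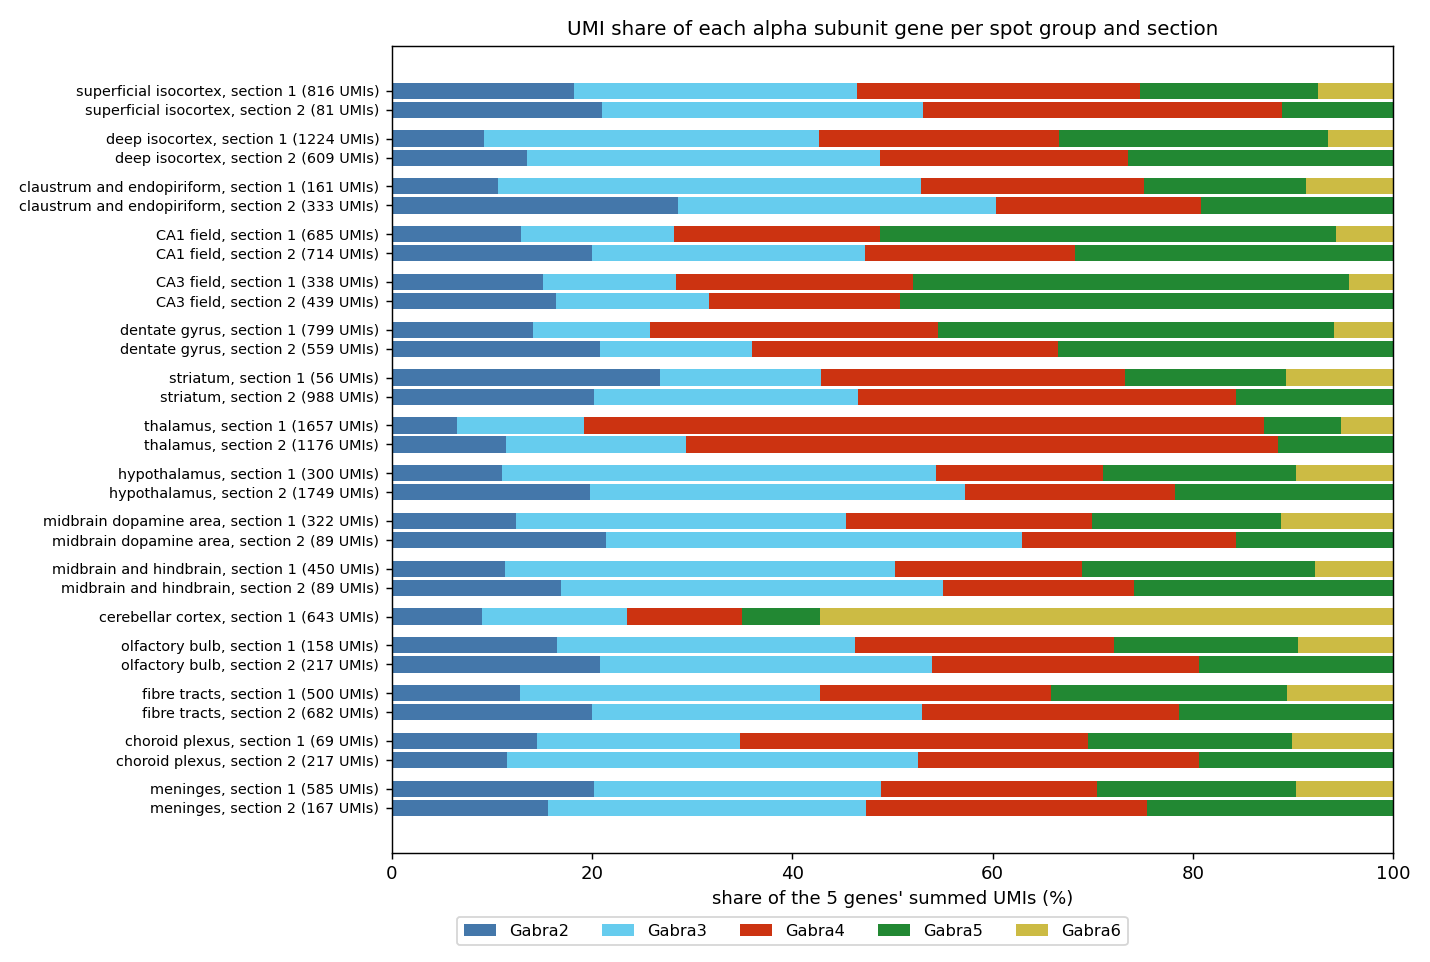
Share of the 5 genes' summed UMIs (horizontal axis, percent) held by each gene in each spot group and section, with the UMI total beside each bar. Gabra4 fills most of the thalamus bars (68.0% and 59.1%), Gabra5 the largest part of the hippocampal bars, and Gabra6 most of the cerebellar bar (57.2%).

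The summed level of the 5 genes also differed between groups. It was 294.4 and 261.5 CPM in CA1 and 291.6 and 223.8 CPM in the thalamus. The fibre tracts stood at 137.9 and 150.9 CPM, the meninges at 144.6 and 147.0 CPM and the choroid plexus at 116.6 and 157.8 CPM. Close to these were the midbrain dopamine area, at 156.3 and 148.7 CPM, and the midbrain and hindbrain, at 163.2 and 148.0 CPM. In the fibre tracts, meninges and choroid plexus the glutamatergic markers, all 5 detected, summed to between 608.1 and 1098 CPM. Sums in that range were also found in the hypothalamus (688.1 and 876.0 CPM), midbrain dopamine area (736.4 and 805.3), midbrain and hindbrain (757.1 and 805.0) and striatum (967.2 and 782.9). GABAergic markers summed to 1040 and 1592 CPM in the fibre tracts, 1218 and 1345 in the meninges and 1020 and 1243 in the choroid plexus. The part of either list in these levels was not tested.

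Gabra6 encodes alpha 6. Cerebellar cortex spots were 118 in section 1 and 1 in section 2, so the group could not be compared across sections and is described for section 1. There Gabra6 gave 368 UMIs, or 200.4 CPM (95% Poisson interval 180.5 to 222.0), and 57.2% of the 5 genes' UMIs (53.3 to 61.1%). At least 1 UMI was found in 61.0% of the 118 spots, with up to 26 in one spot. Gabra3 stood at 50.7 CPM, Gabra4 at 40.3, Gabra2 at 31.6 and Gabra5 at 27.2 CPM in the same spots. Gabrd, the known partner of alpha 6 in granule cells, stood at 143.8 CPM.

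Gabra6 was uneven within the group. Cbln3, a granule cell gene, was used to divide the spots after the data were seen, and since it belongs to the marker list the division is a description. In the 40 spots with 5 or more Cbln3 UMIs Gabra6 stood at 417.9 CPM (371.7 to 468.2), in the 58 spots with 1 to 4 at 75.8 CPM (58.5 to 96.6) and in the 20 spots with none at 22.4 CPM (8.21 to 48.7). Gabrd went the same way, at 227.9, 101.5 and 55.9 CPM. The other 4 alpha genes had intervals that overlapped between the 3 sets of spots. Pcp2, a Purkinje cell gene, stood at 458.7 CPM even in the spots with no Cbln3.

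**Figure D5:**
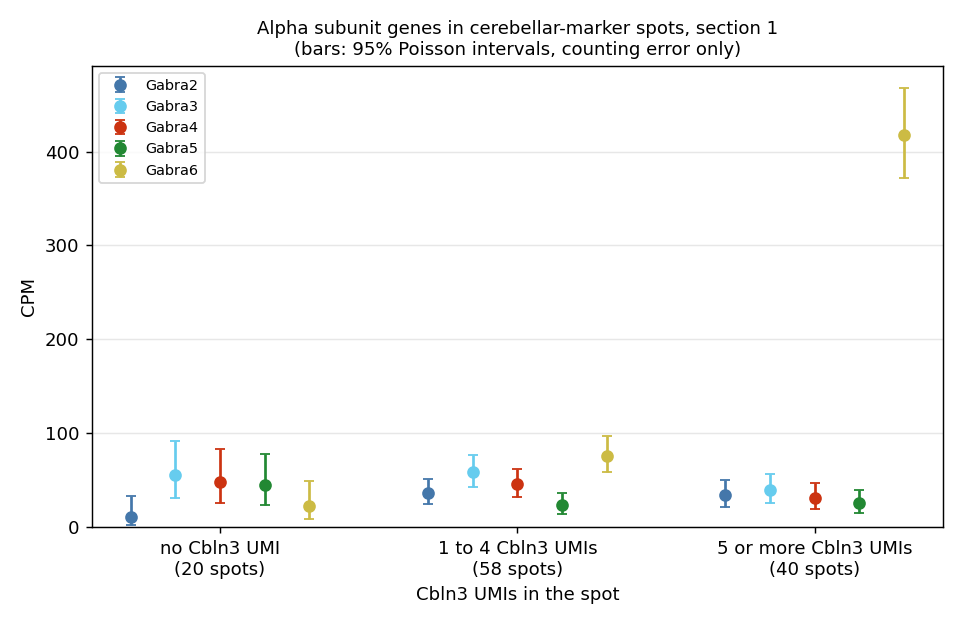
CPM (vertical axis) of the 5 genes in cerebellar cortex spots of section 1, divided by the number of Cbln3 UMIs in the spot (horizontal axis), with 95% Poisson intervals. Gabra6 is at 22.4, 75.8 and 417.9 CPM from left to right, while the other 4 genes lie at or below 58.3 CPM.

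Outside the cerebellar spots Gabra6 was found at a low level in all groups of section 1. It stood at 16.1 CPM over all other spots, 8.04% of its cerebellar level, and between 11.4 CPM in CA3 and 22.2 CPM in the striatum, choroid plexus and fibre tracts included. Cbln3 stood at 8.02% of its cerebellar level in the same spots and Pcp2 at 3.61%. Section 2, with 1 cerebellar spot, held 1 UMI of Gabra6 and 14 of Cbln3. All 14 section 2 sums of Gabra6 were 0, so its tests between groups rest on section 1 alone, and the lack of calls does not show that the groups were alike. In section 1 the choroid plexus and fibre tract groups stood at 11.8 and 14.6 CPM, within the range of the neuronal groups, and the low values are not read as expression in any of these regions. The sections were also counted with different versions of Space Ranger, whose part in the Gabra6 values cannot be told apart from that of section.

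The rest of the GABA pathway was followed in lists. Of the 9 tested genes for GABA synthesis, transport and chloride balance, 3 were lower and 1 higher in the thalamus spots (median 0.02, against -0.02 over all genes). Those lower were Slc32a1, the vesicular GABA transporter (-0.98 ± 0.11, adjusted p = 1.23e-09), and the GABA-making enzymes Gad1 (-0.85 ± 0.12, adjusted p = 5.62e-07) and Gad2 (-0.81 ± 0.09, adjusted p = 4.18e-10). Slc6a11, an astrocytic GABA transporter, was higher (0.67 ± 0.08, adjusted p = 4.40e-09). Of all genes 21.6% were called there. In the dentate gyrus, with 21.3% of all genes called, 6 of the 9 were lower and none higher (median -0.37, against -0.01 over all genes), led by Slc6a11 (-0.74 ± 0.10, adjusted p = 1.43e-07), and in the midbrain dopamine area, with 3.56% called, 6 were higher and none lower (median 0.62, against -0.01 over all genes), again led by Slc6a11 (1.04 ± 0.09, adjusted p = 5.89e-11). All 14 listed genes of the inhibitory postsynapse were tested; 5 were higher and 2 lower in CA1, where 13.7% of all genes were called, and 4 were higher and none lower in CA3, where 10.6% were. In the dentate gyrus 4 were higher and none lower, and in the thalamus 2 were higher and 2 lower, against the 21.3% and 21.6% of all genes called there. Nsf, listed for its part in receptor trafficking, was highest of them in CA3 (0.69 ± 0.07, adjusted p = 6.48e-11).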

How the data were processed

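The deposited values are raw UMI counts per gene and spot. The submitters' processing notes name Space Ranger 2.0.1 and the genome mm10 for both sections, while per the file headers section 1 was counted with 1.2.2 and section 2 with 2.0.1. Promoter windows came from RefSeq, GRCm38.p6. Gene lists, members and their naming rules were chosen with earlier results of these data known; named beyond the members were up to 4 called genes of each list by size, the 5 most alike genes and neighbouring subunit genes; some genes that these rules name are not reported here.

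Spots with at least 500 UMIs joined the marker list with the highest mean z-score of log counts per 10000, if at least 0.5 and 0.25 above the next; 341 and 249 spots scored within 0.1 of the first limit. The sections share 1965 spot barcodes, which are array positions. Sums per group and section were fitted with edgeR 4.0.16 (TMM, filterByExpr, section as a block, since all groups come from the same sections; SE from the F statistic), without the 112 marker genes. DESeq2 1.42.0 was an alternative. The fit was tested on simulated counts. Correlations used log2(CPM + 1) and genes of mean log2 CPM of at least 3.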

Additional observations from a re-analysis of the deposited data

How the results depend on the processing

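Of the 40 calls of the 5 genes in both kinds of comparison, 11 passed under every alternative that could be fitted and all kept their direction, apart from Gabra2 in the claustrum group, between -0.17 without the section 2 sum (adjusted p = 0.98) and 1.11 without that of section 1. The 12 alternatives covered tool, scaling, filter, section term, left-out section and spot grouping; lowering the minimum to 15 spots, or leaving out the olfactory bulb and claustrum groups, was chosen after seeing the data. Against the 13 higher and 14 lower calls of groups against the others, leaving section out of the model (no replicate block) gave 7 and 5, and DESeq2 gave 7 lower. Leaving out the tested group's sum of one section gave between 7 and 8 higher and between 4 and 8 lower calls. Against the 5 higher and 8 lower calls in pairs, no replicate block gave 3 and 3, DESeq2 gave 3 higher, z-scores within section gave 3 higher, and spots of at least 2000 UMIs gave 3 and 5 over 4 pairs, since fewer groups remained. Leaving out a section gave between 2 and 4 higher and 4 lower. DESeq2 lost 14 of the 40 calls, the model without section 22, and the model without TMM factors 2. Gabra4 in the striatum minus the deep isocortex was kept in 2 of 11 alternatives, Gabra5 in the striatum in 5 of 11, Gabra3 in CA3 in 5 of 12, and Gabra4 in the hypothalamus in 6 of 12. The same gene led in both sections in 13 of 14 groups under 4 other groupings and in 11 with the mean of CPM over spots. The cause of these changes was not tested. With 2 sections, and with 1283 Gabra6 UMIs in one of them only, small differences were not detectable at this depth. The per-length alternative was not run, since no transcript lengths were used here.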
